A study of Homo sapiens with 7 samples.

Results

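Levels and transcription initiation of 9 genes of insulin-like growth factor signalling were examined in T47D/A1-2 cells, of 26175 genes with a level in the RNA-seq table. The genes were chosen by symbol, for their place in the pathway, and not by a threshold on their values. They encode 3 receptors (IGF1R, INSR and IGF2R), 2 receptor substrates (IRS1 and IRS2) and 4 secreted binding proteins (IGFBP2, IGFBP3, IGFBP5 and IGFBP6). Start-seq calls were attributed to a gene where they fell inside its deposited locus widened by 1000 nt on each side, which gave 6 of the 10391 gene transcription start sites (TSSs). Antisense TSSs were attributed through the identifier that they share with a gene TSS.

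The study examined antisense transcription that starts downstream of gene TSSs, and the chromatin around it. It mapped transcription initiation by Start-seq, in which the 5′ ends of short, capped nuclear RNAs mark start sites to the nucleotide. Steady-state transcript levels were measured by RNA-seq. All libraries came from 1 growth condition. T47D is an established luminal breast cancer line, and its A1-2 subline was engineered with rat glucocorticoid receptor at high levels and with luciferase under the MMTV promoter, although the sample labels name the cells only T-47D. Cells grew in DMEM with 10% fetal bovine serum and spent at least 24 hours before harvest in medium with 5% charcoal dextran-treated serum, so every value below was measured in cells kept in stripped serum.

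Insulin-like growth factors are secreted peptides that bind the receptor tyrosine kinase IGF1R and, depending on the isoform, the insulin receptor INSR. The activated receptors phosphorylate the docking proteins IRS1 and IRS2, which pass the signal to phosphatidylinositol 3-kinase and to the MAP kinase cascade. IGF2R, the cation-independent mannose-6-phosphate receptor, has no kinase domain and carries IGF2 to lysosomes. Outside the cell, binding proteins hold most of the growth factor and set how much of it reaches a receptor. In estrogen receptor-positive breast cancer cells such as T47D, this pathway is known as a mitogenic input that works together with estrogen signalling.

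RNA-seq levels are given in FPKM, fragments scaled to transcript length and library size, so that levels can be set side by side between genes. The authors merged 3 RNA-seq replicates before estimating FPKM, and TSS calls came from 1 Start-seq library as positions without read counts. No value therefore has an error between replicates, the depth behind it is unknown, and no difference between genes could be tested. The order of 2 genes with close levels is accordingly not resolved here. The luminal identity of the cells was visible in the markers: 8 of 8 luminal epithelial markers, among them ESR1 and KRT18, had an FPKM of at least 1 (44.1 to 1142). Of the other marker lists, 0 of 4 basal, 1 of 4 mesenchymal and 0 of 2 endothelial genes reached 1. The mesenchymal gene that did was COL1A1 at 8.82, while VIM was at 0.864. PTPRC, which marks blood cells, was at 0.0208.

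The 9 levels differed widely, with 2 binding proteins at the top and another at the bottom. IGFBP5 had an FPKM of 106 and IGFBP2 of 93.6, above 96.8% and 96.2% of all genes. IGF2R was at 26.1, IRS1 at 11.4 and IGF1R at 6.26. INSR was at 1.5, IGFBP6 at 0.901, IRS2 at 0.457 and IGFBP3 at 0.0154. Thus 6 of the 9 genes reached an FPKM of 1, against 46.9% of all genes, and their median was 6.26 against 0.528 over all genes and 5.48 over the 18287 genes above 0. Among the 13064 genes with a gene TSS in the widened locus, the median was 10.1 with quartiles of 1.39 and 30.6. Only IGFBP5 and IGFBP2 lay above that range, and IGFBP6, IRS2 and IGFBP3 lay below it.

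**Figure D1:**
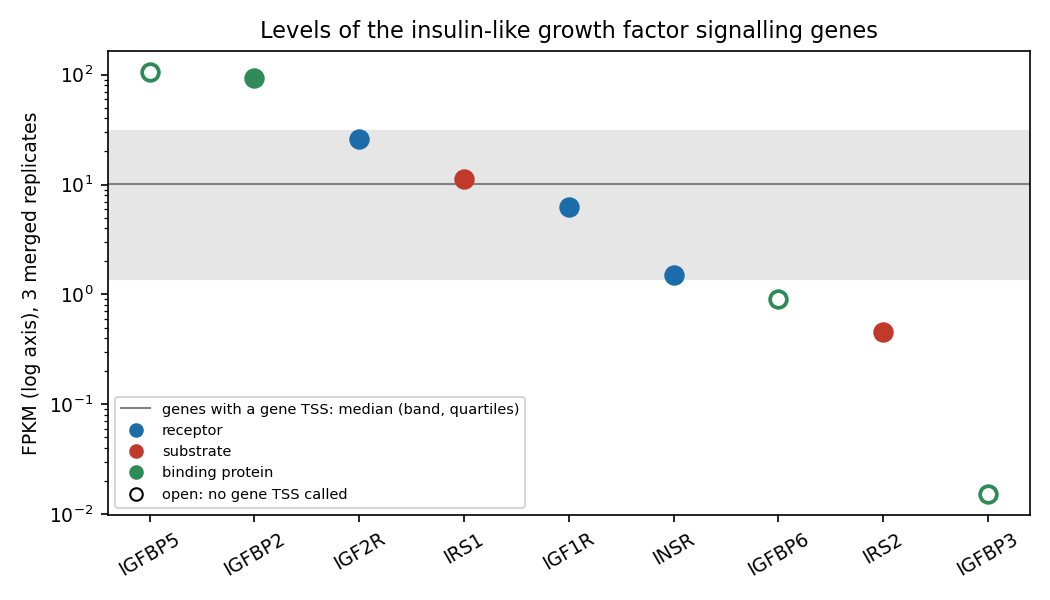
Each point is the FPKM of a gene (log axis) from 3 merged RNA-seq replicates, colored by role, with an open symbol where no gene TSS was called. The line and band give the median of 10.1 and the quartiles of the genes with a gene TSS, which IGFBP5 and IGFBP2 exceed and IGFBP6, IRS2 and IGFBP3 fall below.

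Among the receptors, IGF2R had the highest level, followed by IGF1R and INSR. The FPKM of IGF2R was 4.17 times that of IGF1R and 17.5 times that of INSR. The level of IGF1R was in turn 4.18 times that of INSR, its closest relative and partner in hybrid receptors. IGF2R lay above 71.6% of the genes with a gene TSS, IGF1R above 40.7% and INSR above 25.4%, so that both signalling kinases were in the lower part of that distribution. Non-coding RNAs are annotated on the opposite strand in the loci of the receptors IGF1R (IRAIN) and IGF2R (AIRN). IRAIN was listed at 0.0432 and AIRN at 0. The libraries were strand-specific, but whether the FPKM estimate used the strand was not given in the sources used here.

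A single gene TSS was called for each receptor, on the strand of the gene, and the antisense calls differed among the 3. At IGF1R, the gene TSS was at position 99191881 on the plus strand of chromosome 15 (hg19), in the 5′ UTR of exon 1 and 113 nt downstream of the nearest annotated transcript start. The deposited locus, which IGF1R shares with IRAIN, begins 2786 nt upstream of the call. No antisense TSS was called at IGF1R. At IGF2R on chromosome 6, the gene TSS at 160390126 was 12 nt downstream of the annotated start, in the 5′ UTR of exon 1. An upstream antisense TSS (uaTSS) of IGF2R was called on the minus strand at 160389934, 192 nt upstream of the gene TSS and close to the median uaTSS distance of 200 nt.

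INSR is transcribed from the minus strand of chromosome 19, and its gene TSS was called at 7294933. This was 508 nt upstream of the annotated start at 7294425 and outside every annotated INSR transcript, a distance exceeded by few gene TSSs (95.3% were nearer to a start). From the 5′ end of the deposited INSR locus, the call differed by -922 nt, where the minus sign means upstream. The downstream antisense TSS (daTSS) of INSR on the plus strand, which points back toward the promoter, was called at 7294101. It lay 832 nt downstream of the gene TSS, against a median of 507 nt for all daTSSs. Measured from the annotated start, the daTSS was only 324 nt downstream, in the 5′ UTR of exon 1. The called INSR start and its daTSS thus lie on opposite sides of the annotated transcript start at 7294425. Both lie upstream of the 5′ end of the deposited locus, however, so the placement of the daTSS depends on which reference is taken.

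The sequences at the receptor start sites are shown because they carry the initiation site itself and the motifs that 2 of the 3 promoters share. They are read 5′ to 3′ on the transcribed strand from hg19, and capitals mark the bases at -1 and +1, the last base before the TSS and the TSS. The stretches, in the order printed, are chr15:99191861-99191890 (plus), chr19:7294924-7295013 (minus), chr19:7294081-7294110 (plus), chr6:160390046-160390135 (plus) and chr6:160389925-160390014 (minus).
IGF1R gene TSS: cgaggaggagcgagcgcacCAggcgaactc
INSR gene TSS: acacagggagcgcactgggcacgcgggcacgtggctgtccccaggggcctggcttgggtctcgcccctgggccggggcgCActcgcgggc
INSR daTSS: cgcgcgcggcttcgccagcTAcaaatactg
IGF2R gene TSS: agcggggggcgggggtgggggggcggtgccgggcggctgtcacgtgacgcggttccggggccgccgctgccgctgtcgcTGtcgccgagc
IGF2R uaTSS: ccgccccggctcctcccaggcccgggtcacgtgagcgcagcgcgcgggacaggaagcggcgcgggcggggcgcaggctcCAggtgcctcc
All 5 starts had a pyrimidine at -1 and a purine at +1, the usual pattern for RNA polymerase II. The E-box CACGTG, which reads the same on both strands, occurred in the 100 nt upstream of the gene TSSs of INSR (1 copy) and IGF2R (2 copies) and of none of the other 4. It occurred in this window at 4.47% of all gene TSSs. This motif was looked up after the sequences had been seen, and a match is no evidence that a factor binds there.

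The 2 substrates differed more than the receptors did, with an FPKM of 11.4 for IRS1 and 0.457 for IRS2. The ratio of 24.8 places IRS1, the main docking protein of IGF1R, above 52.5% of the genes with a gene TSS and IRS2 above 19.9%. IRS2 nevertheless had a called gene TSS and a called uaTSS. Genes with a gene TSS and an FPKM under 1 made up 23.1% of the 13064 genes with a gene TSS, and IRS2 was the only such gene among the 9. That share counts calls on either strand of the widened locus, and a locus can hold more than 1 gene. Both substrates had a uaTSS, and both of these uaTSSs were far from the gene TSS.

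IRS1 lies on the minus strand of chromosome 2, and its gene TSS was called at 227663244. That position is inside the annotated gene, 1292 nt downstream of the GENCODE start at 227664536 and 210 nt past the first base of the coding sequence, in exon 1. Only 25 of the 10391 gene TSSs were 1000 nt or more from any annotated start on their strand. Such distances were limited by design, because gene TSSs were searched only in windows about RefSeq mRNA starts. From the 5′ end of the IRS1 locus in the deposited table the call was 262 nt away. The distance thus depends on whether a transcript start or the locus end is taken, as it does at IGF1R and INSR. At IGF1R, the locus is shared with IRAIN. The uaTSS of IRS1 was called on the plus strand at 227664047, 803 nt upstream of the gene TSS, farther than 97.5% of uaTSS distances. This antisense start lies 489 nt downstream of the GENCODE start, in the 5′ UTR of exon 1, and so inside the longer annotated transcript.

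IRS2 lies on the minus strand of chromosome 13, and its gene TSS at 110438954 was 24 nt upstream of the annotated start. The uaTSS of IRS2 was called on the plus strand at 110439432. Its distance of 478 nt from the gene TSS was longer than 88.2% of uaTSS distances. No daTSS was called at either substrate gene.

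The substrate start sites are shown because the IRS1 call falls in coding sequence and both IRS2 calls differ from the usual initiator pattern. Capitals again mark -1 and +1, and the stretches are chr2:227663235-227663264 (minus), chr2:227664027-227664056 (plus), chr13:110438945-110439034 (minus) and chr13:110439352-110439441 (plus).
IRS1 gene TSS: tcccccttgagagctgcttCAacatcaaca
IRS1 uaTSS: agccgcccaaataccagctCAgtcgcagag
IRS2 gene TSS: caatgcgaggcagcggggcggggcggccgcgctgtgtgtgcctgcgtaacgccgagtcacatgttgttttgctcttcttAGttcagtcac
IRS2 uaTSS: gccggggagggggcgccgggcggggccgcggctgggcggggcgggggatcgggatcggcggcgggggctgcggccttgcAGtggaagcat
Both IRS1 starts had C at -1 and A at +1, whereas both IRS2 starts had A at -1 and G at +1.

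The binding proteins formed an abundant and a scarce group. IGFBP5 was at 106 and IGFBP2 at 93.6 FPKM, a ratio of 1.13 that cannot be resolved without replicate values. IGFBP6, which binds IGF2 preferentially, was at 0.901, and IGFBP3, the main carrier in serum, at 0.0154. The FPKM of IGFBP5 was 118 times, and that of IGFBP2 was 104 times, that of IGFBP6. Over the 8 binding protein genes examined, which add IGFBP1, IGFBP4, IGFBP7 and IGFALS, the summed FPKM was 287. IGFBP5 made up 36.9% of this sum, IGFBP2 32.6% and IGFBP4 30.04%, together 99.5%. IGFBP4 was at 86.3, IGFALS at 0.304, IGFBP7 at 0.122 and IGFBP1 was listed at 0.

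Of the 3 abundant binding proteins, IGFBP2 and IGFBP4 had a called gene TSS and IGFBP5 did not. IGFBP2 had a gene TSS, at 217498144 on the plus strand of chromosome 2, 1 nt from the annotated start and without any antisense call. IGFBP5, at a level close to that of IGFBP2, had none in its widened locus on the minus strand of chromosome 2. From the 5′ end of IGFBP5 at 217560272, the nearest gene TSS was 62128 nt away. Of the 2191 genes with an FPKM of 50 or more, 8.40% had no gene TSS in the widened locus, and IGFBP5 was the only such gene among the 9. At or above the FPKM of IGFBP5 itself, 70 of 846 genes had none (8.27%). IGFBP2 and IGFBP5 are neighbours that point toward each other, with 7668 nt between their 3′ ends.

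Neither of the scarce binding proteins had a gene TSS in its widened locus, as was usual at such levels. Of all genes with an FPKM under 1, only 21.7% had one. The nearest call was 809551 nt from the 5′ end of IGFBP3 (chromosome 7, minus strand, 45960871) and 18485 nt from that of IGFBP6 (chromosome 12, plus strand, 53491436). IGFBP3 lies 18584 nt from IGFBP1, which was listed at 0 and also had no call. An exon of the long non-coding RNA gene DIRC3-AS1 (217560139 to 217560365, plus strand) covers the 5′ end of IGFBP5 on the opposite strand. DIRC3-AS1 had no entry under this symbol in the RNA-seq table, so its part in the level of IGFBP5 was not tested.

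The start of IGFBP2 and the 5′ ends of the 3 loci without a call are shown so that the only TATA-box match found in the windows searched at the 9 genes can be seen. Capitals mark -1 and +1, here counted from the 5′ end of the locus for genes without a call, and the TATA-box match. The stretches are chr2:217498064-217498153 (plus), chr7:45960862-45960951 (minus), chr2:217560263-217560292 (minus) and chr12:53491416-53491445 (plus).
IGFBP2 gene TSS: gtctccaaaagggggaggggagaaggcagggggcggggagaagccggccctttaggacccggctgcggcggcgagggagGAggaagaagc
IGFBP3 locus start: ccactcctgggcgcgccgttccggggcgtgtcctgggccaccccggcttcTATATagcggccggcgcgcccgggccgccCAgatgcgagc
IGFBP5 locus start: gcctgctctcccggagcccCGtagtctctt
IGFBP6 locus start: cggctacttaagacagaggGGcggcggcgg
The TATA-box match TATAW, in which W stands for A or T, was searched on the transcribed strand with a start between -35 and -24. At IGFBP3 it started at -30, and the annotated start there had C at -1 and A at +1. It was found in this window at 4.55% of 35116 RefSeq promoters. No match at IGFBP5 or IGFBP6 says only that these letters are not in the window.

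Across the 9 genes, 6 had a gene TSS, against 49.9% of all genes, and all 6 calls were on the strand of the gene. A uaTSS accompanied 3 of the 6 gene TSSs (IGF2R, IRS1 and IRS2), against 53.1% of all gene TSSs. A daTSS accompanied 1 of the 6 (INSR), against 28.4%, and 2 of the 6 (IGF1R and IGFBP2) had neither, against 35.9%. With 6 gene TSSs, these counts do not set the genes apart from gene TSSs in general. No other gene TSS was called within 5000 nt of any of the 6. This was the usual case, since the lower quartile of the distance to the nearest other gene TSS was 7278 nt over all gene TSSs. The nearest other gene TSS was 37562 nt away at IRS1 and 775085 nt away at IRS2, against a median of 35286 nt.

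**Figure D2:**
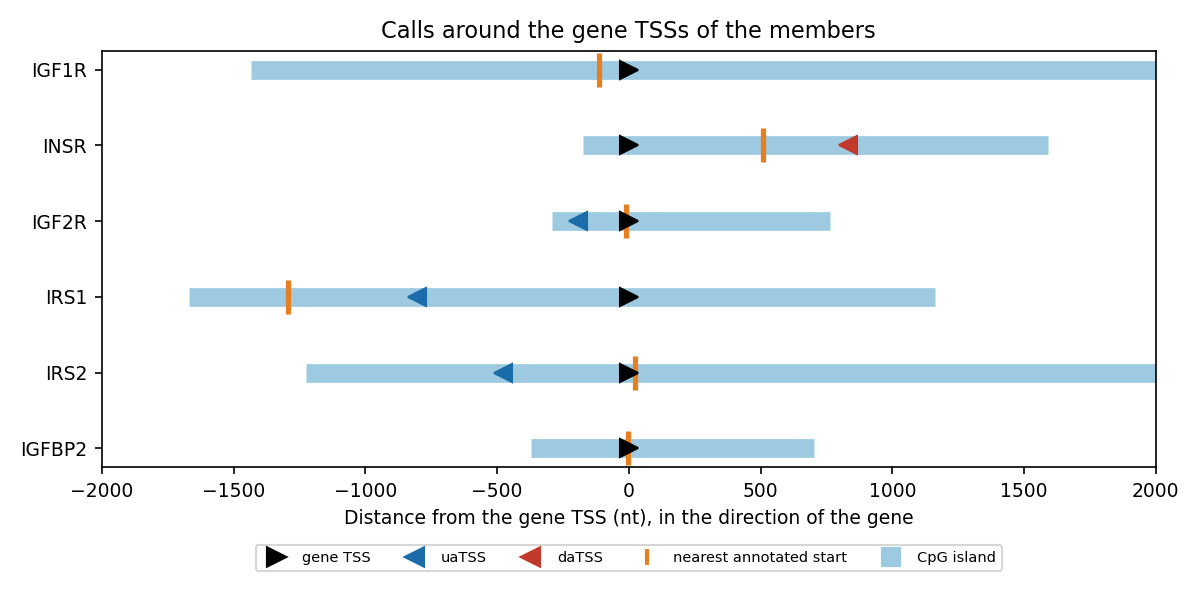
Calls and CpG islands are drawn against distance from the gene TSS in nt, in the direction of the gene, for the 6 genes with a call. The uaTSSs of IGF2R, IRS1 and IRS2 lie 192, 803 and 478 nt upstream, the daTSS of INSR lies 832 nt downstream, and orange bars show that the IRS1 call is downstream of its annotated start and the INSR call upstream.

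All 6 gene TSSs lay in a CpG island, a CpG-rich and usually unmethylated stretch found at many promoters, as did 82.7% of all gene TSSs. The islands differed in length, from 1058 bp at IGF2R and 1074 bp at IGFBP2 to 1768 bp at INSR, 2830 bp at IRS1, 4113 bp at IGF1R and 5714 bp at IRS2. The median was 923 bp, and the islands of IGF1R and IRS2 were longer than 98.7% and 99.5% of those at gene TSSs. Islands also covered the 5′ ends of IGFBP3 (1210 bp) and IGFBP6 (554 bp). IGFBP5 stood apart from the other 8 genes, because no island covered its 5′ end and the nearest was 788 nt away.

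Antisense TSSs lay inside these islands. The IGF2R uaTSS was 101 nt inside the upstream edge, while those of IRS2 and IRS1 were 748 and 865 nt inside it. The INSR daTSS was 760 nt inside the downstream edge. GC content around each antisense TSS was compared over 500 nt on either side, read in its own direction. At the IGF2R uaTSS, GC content dropped by 24.4 percentage points from the upstream to the downstream side, from 80.2% to 55.8%, against a median of -12.8 for all uaTSSs. The difference was -3.2 at the IRS2 uaTSS and 1.4 at the IRS1 uaTSS, which were higher than 82.2% and 89.9% of uaTSSs. At the INSR daTSS it was 0.6, against a median of 10.4 for all daTSSs. Only the IGF2R call thus lay at a steep edge of GC content, and the 3 more distant antisense calls lay within GC-rich sequence on both sides.

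**Figure D3:**
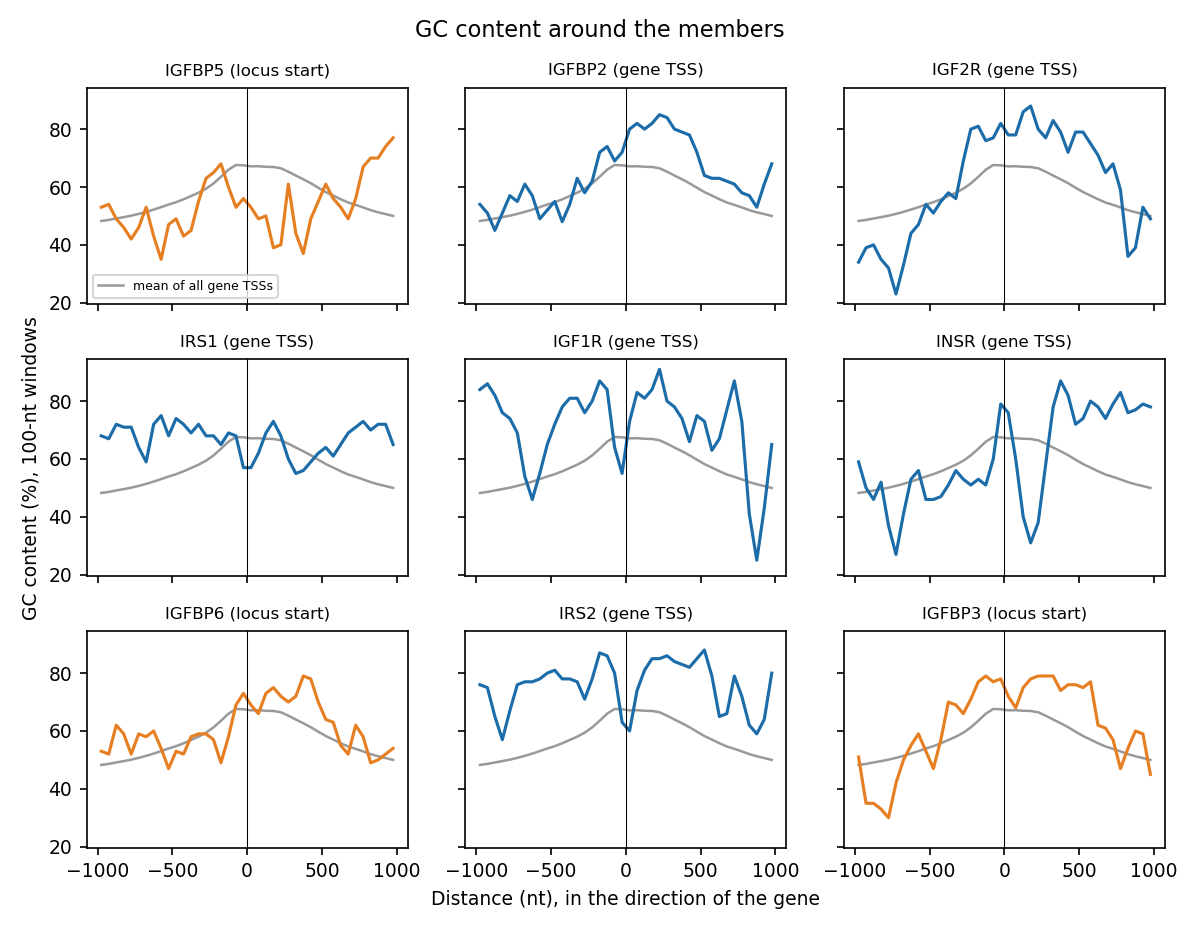
GC content in 100-nt windows (%) is plotted against distance in nt from the gene TSS, or from the 5′ end of the locus for the 3 genes without a call (orange), with the mean over all gene TSSs in grey. IRS2 stays at 57% or above from end to end, INSR falls to 31% at 175 nt downstream between its called and annotated starts, and IGFBP5 lacks the central GC peak.

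In the 100 nt centered on the gene TSS, GC content was 77% at INSR and IGF2R, 76% at IGFBP2 and 64% at IGF1R. It was 58% at IRS1 and 57% at IRS2, lower than at most gene TSSs (median 68%), although both substrates lie in long islands. The order depends on the window, since over 500 nt IRS2 was at 79% and IGF1R at 78%, while INSR was the lowest of the 6 at 52.8%. At the 5′ ends without a call it was 73% at IGFBP3, 70% at IGFBP6 and 58% at IGFBP5. A pyrimidine at -1 with a purine at +1 was found at 4 of the 6 gene TSSs, against 66.1% of all. The exceptions were IRS2 and IGFBP2, which has G at -1 and A at +1. TATAW was found at 0 of 6 gene TSSs, against 3.0%. The GC box GGGCGG, searched on both strands in the 50 nt upstream, was found at 2 of 6 (IGF2R and IGFBP2), against 27.4%.

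The genes were next placed within a list of 50 pathway genes arranged by role. Of these 50, 30 had an FPKM of at least 1, against 46.9% of all genes. Listed at 0 were 4 of them (IGF1, INS, IGFBP1 and IRS4), against 7888 of all 26175 genes. Among the ligands, IGF1 and INS, which encodes insulin, were listed at 0 and IGF2 was at 1.02. INSRR, an orphan relative of INSR, was at 0.00314. Receptors reached 1 in 3 of 4 cases and binding proteins in 3 of 8. Proteases of binding proteins, grouped with the inhibitors of those proteases, reached it in 2 of 7 (STC1 and STC2). Substrates and adaptors reached it in 10 of 13, negative regulators in 8 of 10, proprotein convertases in 2 of 2 and IGF2 mRNA-binding proteins in 1 of 3. Outside the 9 genes, 24 of 41 reached 1, and the highest levels were those of SHC1 (102), IGFBP4 (86.3) and GRB2 (77.0). SHC1 and GRB2 are adaptors that link receptor tyrosine kinases to RAS, and the levels of both exceeded those of the receptors and of IRS1.

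**Figure D4:**
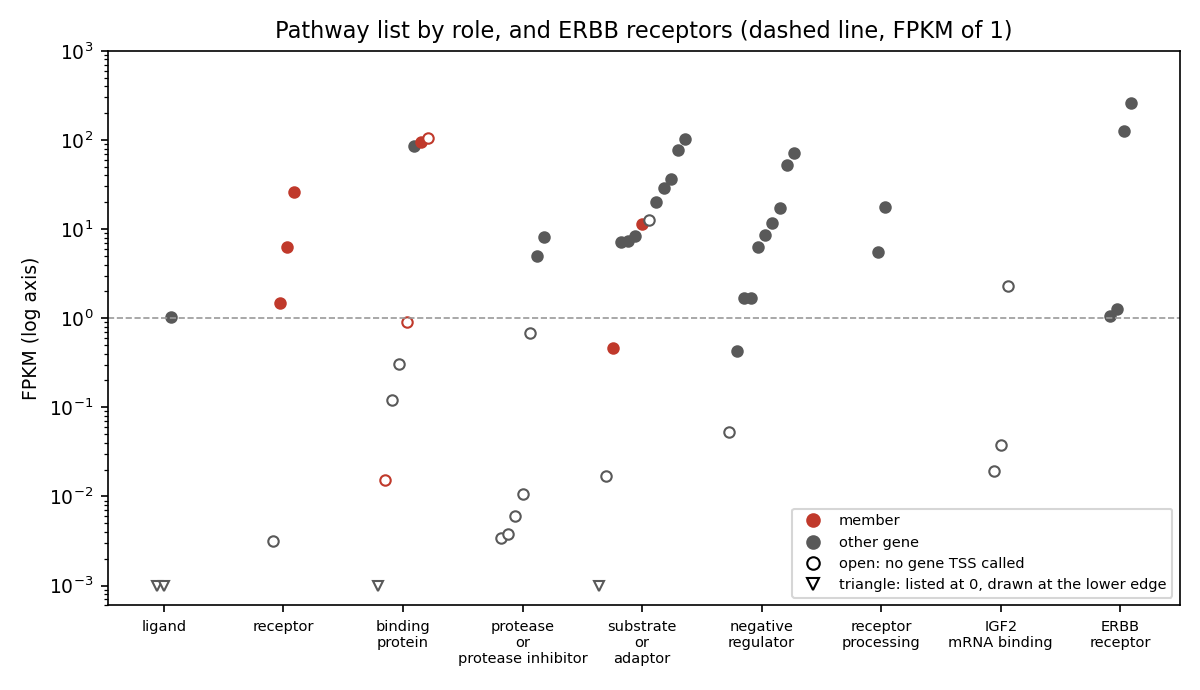
Each symbol is the FPKM (log axis) of a gene of the pathway list or of the ERBB family by role, in red for the 9 genes, open where no gene TSS was called within 2000 nt of an annotated start on its strand, and as a triangle at the lower edge where it is listed at 0. Binding proteins split into an abundant group of 3 and a scarce group, and most adaptors lie above the dashed line at 1.

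In this list, 28 of the 30 genes at or above an FPKM of 1 had a gene TSS in the widened locus, against 81.8% of all such genes, as did 4 of the 20 genes below it, against 21.7%. Because a locus can hold more than 1 gene, calls were next counted only on the strand of the gene and within 2000 nt of an annotated start, which left 29 of the 50 genes with a gene TSS. These were 27 of the 30 genes at or above 1 and 2 of the 20 below it (IRS2 and SOCS1). IGFBP5 was 1 of the 3 genes at or above 1 without such a call, with DOK4 and IGF2BP2, which are named here after their values were seen. Of the 31 gene TSSs, 15 had a uaTSS (48.4%) and 7 had a daTSS (22.6%), against 53.1% and 28.4% of all gene TSSs. Substrates and adaptors had a uaTSS at 10 of 11 gene TSSs, including IRS1 and IRS2, and negative regulators at 4 of 9. Receptors had a uaTSS at 1 of 3 and binding proteins at 0 of 2. Ligands, the group of proteases and inhibitors, and proprotein convertases had a uaTSS at 0 of 2 each. Whether the roles differ was not tested, because the list was assembled with results of these data known.

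As another family of receptor tyrosine kinases, the ERBB receptors were set beside IGF1R and INSR. ERBB3 was at 259 FPKM and ERBB2 at 124, which are 41.3 and 19.9 times the level of IGF1R. EGFR was at 1.28 and ERBB4 at 1.07, so that IGF1R had 4.90 times the level of EGFR and 5.87 times that of ERBB4. The level of INSR was close to those of EGFR and ERBB4. All 4 ERBB genes had a gene TSS on their strand within 2000 nt of an annotated start, as did IGF1R, INSR and IGF2R. These genes all had an FPKM of at least 1, and 81.8% of all such genes had a gene TSS in the widened locus.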

How the data were processed

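RNA-seq values were deposited as FPKM, 1 column over 3 replicates. The authors removed low-quality reads and adapters (cutadapt 1.2.1), aligned with TopHat2 2.0.4, removed duplicates, merged replicates and ran Cufflinks 2.2.1. Start-seq calls were deposited by the authors as hg19 positions of replicate 1 (Bowtie 0.12.8) with a score of 0 throughout. A call needed at least 5 reads, with search windows of 1000 nt upstream for uaTSSs and 2000 nt downstream for daTSSs. Gene TSSs were searched in windows about RefSeq mRNA starts. Depth per library is unknown, so no intervals are given. The table had 0 unmapped columns of per-sample values. The MNase-seq and FAIRE-seq samples and the other Start-seq replicate were not analysed here.

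Sequence came from GRCh37, which has the chromosome sequences of hg19, and gene models from GENCODE v44 lifted to GRCh37. RefSeq promoters, on GRCh38, were used only for the share with TATAW. Locus starts in the table count from 0 and were shifted by 1. Percentiles are the percent of genes or calls with a lower value. CpG islands followed the UCSC scoring, with a length over 200 bp, GC content of at least 50% and observed to expected CpG over 0.6. On simulated sequence, 97% of 200 planted islands were recovered. The simulated background was much poorer in GC than these promoters, so this share does not measure how accurate the island edges are here. Computations used Python 3.11.15, numpy 2.4.6 and matplotlib 3.10.9.

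The genes and lists were chosen with earlier results of these data known, and no test was run. Named are the 9 genes, the ligands, receptors and binding proteins of the pathway list, its 3 other genes with the highest FPKM, and the ERBB receptors. IRS4, STC1, STC2, SOCS1, DOK4, IGF2BP2, IRAIN, AIRN and DIRC3-AS1 were named after their values were seen. The count over the blood marker list is not reported here.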

Additional observations from a re-analysis of the deposited data

How the results depend on the processing

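Of 56 alternatives over 32 results, 30 stayed within the limit set for them, 26 moved and 0 reversed. The median FPKM of 6.26 became 18.7 over the genes at or above an FPKM of 1 and 8.81 over those with a gene TSS. With a minimum FPKM of 10, the count of pathway genes fell from 30 to 16. Without widening of the locus, 3 genes in place of 6 had a gene TSS, because the calls of INSR, IGF2R and IRS2 lie upstream of their loci. Percentiles of all 9 genes were lower when only genes above 0 or only genes with a gene TSS were ranked. The first of these shifts was fixed in advance, because only genes with lower values were left out. Some alternatives that stayed could not change a count either, such as 1 gene TSS per gene, since each of the 6 genes with a call had only 1. In a 500-nt window, GC content at the gene TSS moved to 78% at IGF1R, 52.8% at INSR and 79% at IRS2. No replicate could be left out, since the values are merged. No paired analysis was possible because the deposited values carry no replicate numbers and there is 1 condition.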
